A study of Homo sapiens with 6 samples.

Results

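The HOXC cluster is the group of homeobox genes on human chromosome 12, and its CpGs are described here as measured in PC-3 cells. Members were all CpGs between positions 54325000 and 54455000 of chromosome 12 (hg19), an interval of 130 kb that runs from HOXC13 to HOXC4, with at least 10 reads in 2 or more S-adenosylmethionine (SAM) samples and in 2 or more control samples. That rule kept 450 of the 730 CpGs listed there in any sample, and 686608 of 1275871 CpGs in the whole series. No methylation difference was used to choose them. The cells were PC-3, an established human prostate carcinoma line, treated for 5 days with 160 µM SAM (3 samples) or with vehicle (3 control samples). Every sample, treated or not, came from that 1 line, and no allele, construct or second agent is named in the labels. Genomic DNA was read by bisulfite sequencing, in which an unmethylated cytosine is read as T and a methylated one as C, so that the methylation level of a CpG is the percent of its reads that carry C. The labels do not say that the replicates were separate cultures, so every p-value here rests on the spread between these samples alone. That spread may be technical.

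HOX genes encode homeodomain transcription factors that set position along the body axis, and within a cluster they lie in the order in which they act along that axis. In the RefSeq table, the interval holds, in order, HOXC13-AS, HOXC13, HOXC12, HOTAIR, HOXC11, HOXC-AS3, HOXC10, MIR196A2, HOXC-AS2, HOXC-AS1, HOXC9 and HOXC8, then HOXC4, HOXC5 and HOXC6 with overlapping spans, and MIR615 within them. HOTAIR is a long non-coding RNA known for its link to the Polycomb repressive complex, and MIR196A2 and MIR615 encode microRNAs. SAM is the methyl donor that DNA methyltransferases use. HOX clusters are rich in CpG islands, which in many tumours carry methylation that normal tissue lacks.

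Of these genes, sequences were tried only for HOXC4, HOXC5, MIR196A2 and MIR615. Among those, only MIR615 could be placed on the positions of the deposited lists. Its RefSeq hairpin, taken from build GRCh38.p14, matched the spacing of listed CpGs at chr12:54427734-54427829 on the plus strand of hg19. This match used 4 of its 7 CG dinucleotides, against 3 at the next best position in the interval, a narrow margin. Promoters of HOXA and HOXD had to match at 5 or more CGs with a margin of 3. The hairpin was thus placed under a looser rule, and its position is tentative. The sequence is shown because it gives the one annotated point of the map. It is written as DNA, 5′ to 3′, and capitals mark the 4 CGs that, as placed, are listed in the data.
MIR615 hairpin: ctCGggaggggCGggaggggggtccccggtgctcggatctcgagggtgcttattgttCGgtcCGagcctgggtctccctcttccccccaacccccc
The promoter that RefSeq gives for HOXC4 and HOXC5, with 15 CGs, matched at no more than 2 of them and was not placed, and the MIR196A2 hairpin likewise matched at 2 of 5. No sequence was tried for the remaining genes, which are named only, and no CpG below is assigned to any of them.

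Depth set the reach of the measurements. Read counts summed over the listed cytosines, which count a read once at each cytosine it covers, were 179379782, 36220663 and 120492978 in the SAM samples and 150331703, 33056018 and 183523792 in the control samples. Among the 450 members, the SAM samples covered 445, 299 and 449 and the control samples 427, 328 and 434, in replicate order. The median reads at a covered member were 61, 31 and 62 in the SAM samples and 84, 28 and 85 in the controls. SAM replicate 2 and control replicate 2 were thus the shallow samples, and 215 members (47.8%) were covered in all 6. A further 152 members were covered in 5 samples and 83 in 4.

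The cluster was a patchwork of nearly unmethylated and nearly fully methylated DNA. Of the 450 members, 115 (25.6%) had a mean level over the samples under 20%, 99 (22%) lay between 20 and 80%, and 236 (52.4%) lay over 80%. At the extremes, 32 members showed no methylated read in any covered sample and 22 no unmethylated read. The whole series was split differently, with 55.0% of its CpGs under 20%, 13.4% between and 31.5% over 80%. The HOXA cluster, between its outermost placed promoters (chr7:27153412-27239960), had 72.4% of 438 CpGs under 20%, 2.51% between and 25.1% over 80%. HOXD (chr2:176957199-177053445) had 25.1% of 426 CpGs under 20%, 27.7% between and 47.2% over 80%, a split like that of HOXC. These shares are descriptions of 1 cell line, neighbouring CpGs share reads, and no test was made of their differences.

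**Figure D1:**
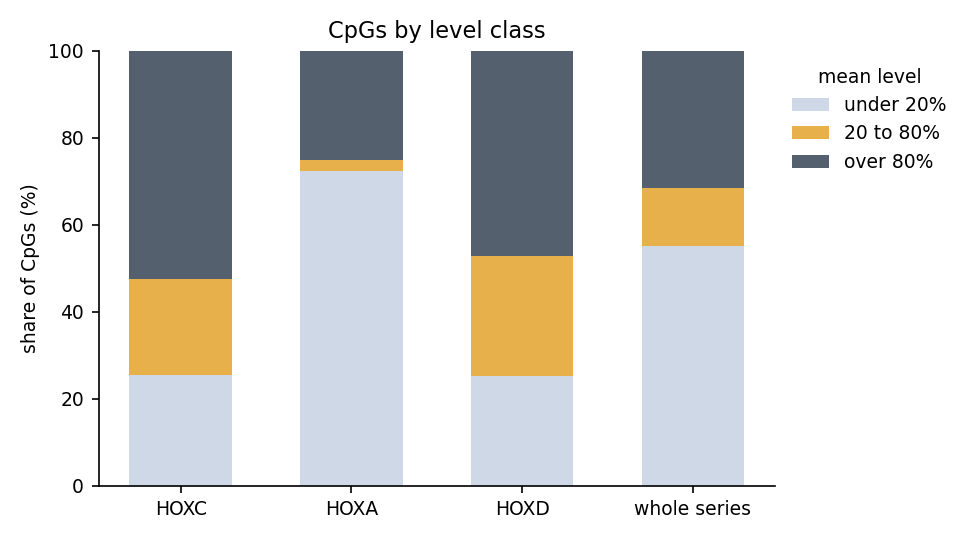
Share of CpGs (%) with a mean methylation level under 20%, from 20 to 80% and over 80% in the HOXC cluster, the HOXA and HOXD clusters and the whole series. HOXC and HOXD have about 25% of their CpGs under 20%, against 72.4% in HOXA and 55.0% in the whole series.

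The members fell into 27 stretches with gaps of at most 1000 bases, and 19 of these held more than one level class. Within 3 of the 27 stretches every member was under 20%, within 4 every member was over 80%, and within 1 every member was between. Counted as runs of at least 5 neighbouring members of 1 class, there were 20 runs over 80% with 190 CpGs, 8 runs under 20% with 102 CpGs and 7 runs between with 52 CpGs. Runs over 80% spanned 27 to 1516 bases, those under 20% spanned 220 to 1051 bases, and the intermediate ones only 42 to 213 bases. The longest methylated run, chr12:54423449-54424964, held 23 members at a mean of 98.0%. The longest unmethylated run, chr12:54398889-54399939, held 7 members at a mean of 3.88%. The longest intermediate run, chr12:54355324-54355536, held 7 members at a mean of 58.2%, and its samples spread widely. Over the 4 of its CpGs covered everywhere, the SAM samples gave 76.2, 41.3 and 61.4% and the control samples 49.9, 76.9 and 85.0%. Those groups overlap, with SAM replicate 2 lowest of all and SAM replicate 1 above control replicate 1.

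**Figure D2:**
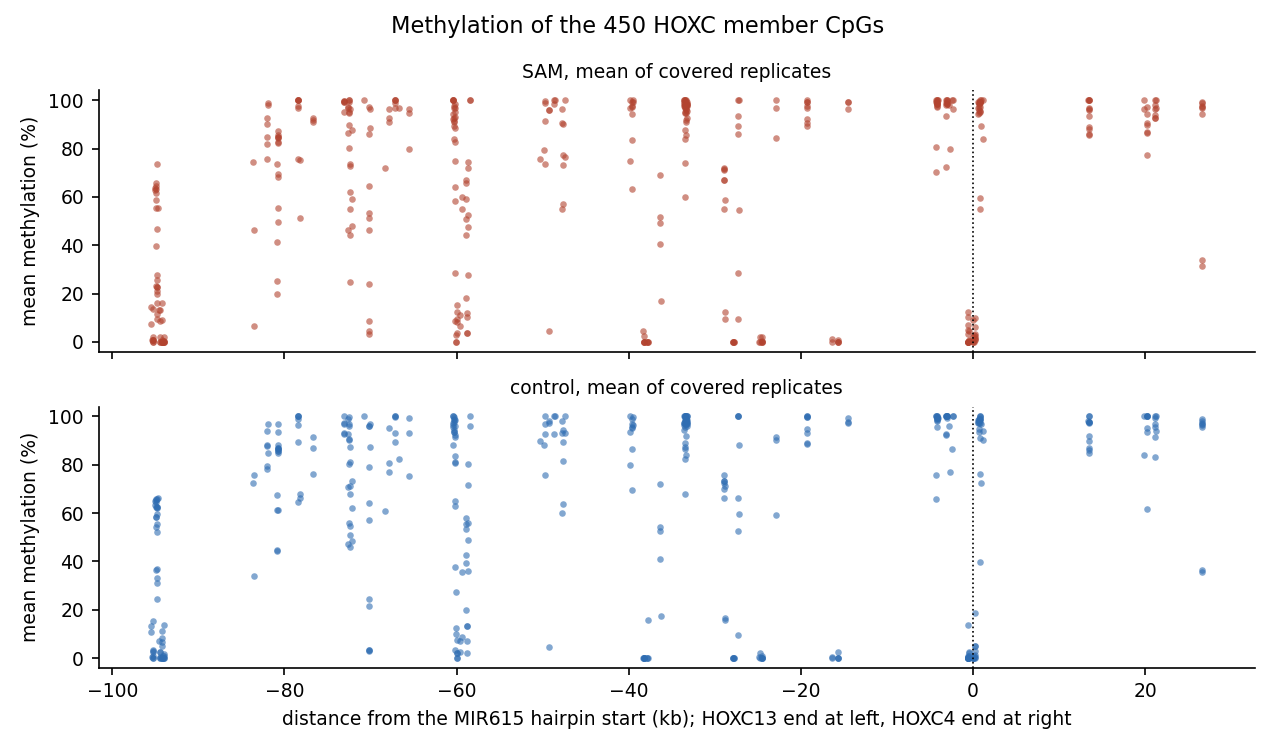
Mean methylation (%) of each of the 450 members against distance (kb) from the MIR615 hairpin start (dotted line), in SAM samples above and control samples below. Each point is 1 CpG, averaged over the samples that cover it; clusters near 0% and near 100% stand in the same places in both panels, with scattered intermediate CpGs.

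Changes of level along the DNA could be abrupt. Neighbouring members within 1000 bases differed by a median of 3.68 percentage points, against 1.41 in the whole series, yet only 5 of 423 such pairs (1.18%) differed by 70 points or more, close to the 1.15% of the whole series. The 5 pairs were singled out by their values. One single CpG, at 54378453, stood at 4.56% between neighbours at 98.0 and 97.0%, the nearer only 47 bases away. That step to the nearer neighbour was 88.9, 87.5 and 97.7 points in the SAM samples and 94.4, 95.5 and 90.7 points in the controls. Every sample thus showed it at almost full size. The shortest step, over 8 bases between 54400459 and 54400467, was 9.42% against 94.8% and rested on 2 samples in each group. A further border, between 54356998 at 100% and 54357498 at 3.34%, also rested on 2 samples in each group. It was seen in SAM replicates 1 and 3 and in control replicates 1 and 2. Beyond it levels varied, from 0 to 44.1% over the samples at 54357505 and from 0 to 63.0% at 54357507.

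As placed, the MIR615 hairpin lay inside an unmethylated run that ended at such a border. From 54427119 to 54427969, 29 members in a row were under 20%, with a mean of 2.38%. Over the 11 of them covered in all samples, levels were 3.40, 2.20 and 2.99% in the SAM samples and 2.99, 4.03 and 3.67% in the controls. Those ranges overlap. The 2 members within the hairpin, at 54427736 and 54427745, had no methylated read in any of the 5 samples that covered them; control replicate 2 did not. The 58 SAM reads and 28 control reads at 54427736 allow, by the limit of 3 reads that a count of 0 sets, levels of up to 5.17% with SAM and 10.7% in controls. At 54427745, with 48 and 26 reads, the limits were 6.25% with SAM and 11.5% in controls. Both limits cover counting error only.

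Downstream of the hairpin the level changed within 372 bases, between 54427969 at 14.2% and 54428341 at 95.8%. That step was 83.6, 88.1 and 81.2 points in the SAM samples and 81.2, 77.3 and 78.0 points in the controls. It was present in all 6 samples. The 12 members from 54428341 to 54428530 averaged 97.4, 97.2 and 96.8% in the SAM samples and 97.5, 97.9 and 97.5% in the controls. Every SAM value there lay below every control value, with a difference of -0.525 points. Across the whole 2001 bases within 1000 of the hairpin start, 50 members lay, 32 of them covered everywhere. Their means were 62.9, 62.4 and 61.7% with SAM and 62.2, 61.8 and 61.9% in controls, so that SAM stood at 62.3 ± 0.590% and control at 62.0 ± 0.167% (SD, n = 3 each). The difference of 0.343 points was within the spread of the replicates, and the groups overlap.

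Averaged over the cluster, methylation with SAM was close to that in controls. For the 215 members covered in all samples, the mean level was 62.8, 61.3 and 62.0% in the SAM samples and 61.6, 62.7 and 64.9% in the controls. SAM samples averaged 62.0 ± 0.776% and control samples 63.1 ± 1.69% (SD, n = 3 each), a difference of -1.03 points. The groups overlap, and control replicate 3 is the highest sample. Per CpG, 94 members were higher with SAM, 107 were lower and 14 were equal, with a median difference of 0 points. The difference was at most 5 points either way at 154 of the 215, and over 20 points at 12. For comparison, the whole series stood at 38.4% in both groups, HOXA at 24.6% with SAM and 25.2% in controls, and HOXD at 49.6% with SAM and 49.3% in controls.

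The difference in the mean lay mainly in the intermediate CpGs, and mostly in 4 neighbours among them, from 54332911 to 54332932. They were picked because their groups separate, so leaving them out was bound to shrink the difference. Without those 4, the other 211 members averaged 62.8 ± 0.506% with SAM and 63.1 ± 1.29% in controls, a difference of -0.226 points. The 56 members under 20% averaged 4.43 ± 0.495% with SAM and 4.81 ± 0.126% in controls. The 101 members over 80% averaged 96.1 ± 0.365% with SAM and 95.6 ± 0.513% in controls. Each of those classes differed by less than 1 point. The 58 members between gave 61.1, 54.6 and 59.3% in the SAM samples and 57.0, 62.1 and 68.8% in the controls, a difference of -4.29 points, with 24 CpGs higher and 34 lower. Without the same 4 neighbours, the other 54 stood at 61.2 ± 2.65% with SAM and 62.6 ± 4.82% in controls, a difference of -1.40 points. The groups of all 58 overlap too, since control replicate 1 lies below SAM replicates 1 and 3. Of the 12 CpGs that differed by over 20 points, 10 were in this class.

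**Figure D3:**
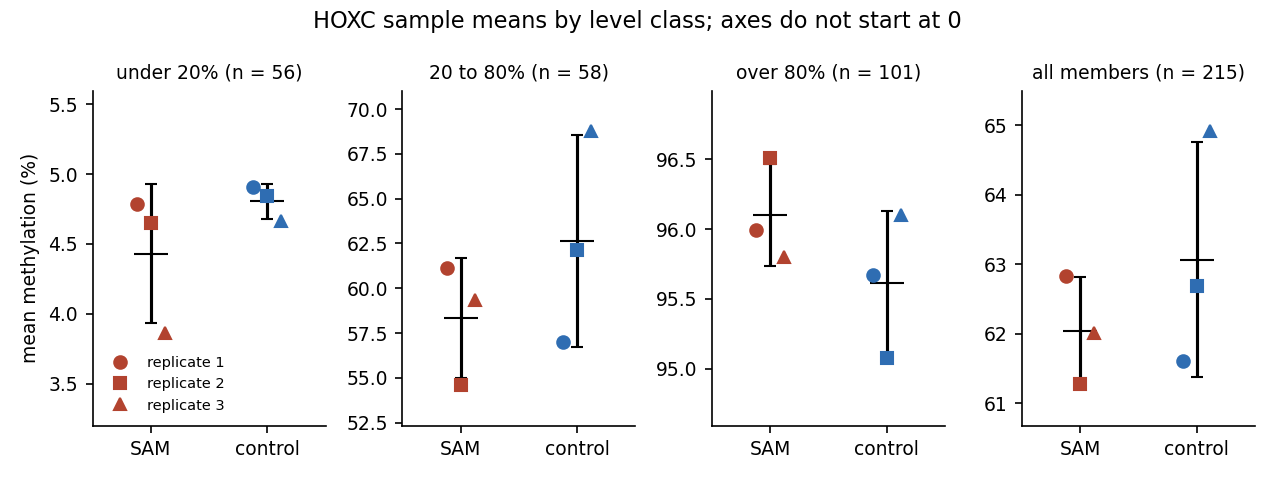
Mean methylation (%) of the HOXC members covered in all 6 samples, by level class, with 1 symbol per sample, the group mean as a horizontal bar and the SD as the error bar; each panel has its own axis, which does not start at 0. In the class from 20 to 80% the SAM samples lie between 54.6 and 61.1% and the control samples between 57.0 and 68.8%, so the groups overlap.

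Members also varied more between samples than CpGs of the whole series, much as HOXD did. The range over the 6 samples had a median of 9.33 points for the 215 members, against 8.33 points in HOXD, 2.74 points in HOXA and 4.48 points in the whole series. Split by class and set against the whole series, the medians were 4.79 against 0.840 points under 20%, 23.1 against 30.3 points between, and 7.46 against 6 points over 80%. The wider range of HOXC was therefore seen in the unmethylated and methylated classes and in the larger share of intermediate CpGs, not within the intermediate class. Under 20%, however, the classes were not at like levels. The members there averaged 4.43% with SAM and 4.81% in controls, against 2.11% with SAM and 2.21% in controls in the whole series. Median reads per CpG and sample were alike, 92 for the members and 90 in the whole series.

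No single member passed the test for a difference between SAM and control. Each CpG was tested with a quasi-binomial logistic model on its methylated and unmethylated reads, with the spread between replicates moderated by limma and p-values adjusted over the genome by Benjamini-Hochberg. At an adjusted p under 0.05, 0 of 396 members were called, against 11 of 490928 CpGs tested in the genome (0.00224%), a share at which 396 CpGs would hold close to 0 calls. The other 54 members had no methylated or no unmethylated read at all and could not be tested. Before adjustment, 16 members (4.04%) had p under 0.05 and were higher with SAM, against 5.67% of all CpGs. Another 30 members (7.58%) were lower at that limit, against 4.96% of all CpGs. Among those 30 were the 6 close neighbours from 54332898 to 54332932, which are not independent. Over 10% of all CpGs had an unadjusted p under 0.05 (10.6%), so p-values before adjustment run small here. Among the members, edgeR's quasi-likelihood test gave 0 calls. It had 12 members (3.03%) at an unadjusted p under 0.05, against 3.01% of all CpGs. With limma on log2 ratios there were 0 calls and 17 members (4.29%) at that limit, against 3.68% of all CpGs. Both tools made 0 calls in the genome, so their 0 calls do not set the members apart from other CpGs. The 0 calls of edgeR carry no weight here.

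None of the 5 members that ranked first by p was called, and all 5 lay close to full or to no methylation. At 54355273 every read was methylated in the 3 SAM samples, with 64, 63 and 284 reads, against 93.5, 93.3 and 83.9% in the controls, with 138, 89 and 112 reads. The groups do not overlap, and the adjusted p of the quasi-binomial test with limma was 0.330. At 54354638, levels were 91.3, 100 and 93.8% with SAM and 100% in each control. The same shape was seen at 54408456, with 94.6, 100 and 95.1% with SAM and 100% in each control, and at 54394470, with 85.7, 100 and 92.5% with SAM and 100% in each control. In those 3 CpGs SAM replicate 2 equalled the controls. At 54332429, levels were 0, 1.16 and 1.21% with SAM and 4.76, 0 and 3.35% in controls, overlapping. Adjusted p-values of these 5 ran up to 0.350 in the limma-moderated test.

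Reads summed over 1 kb tiles gave no call either. Of 27 tiles with members, 0 were called, and 0 of 33583 tiles in the genome (0%) were called. Before adjustment 3 of the 27 member tiles had p under 0.05 in the quasi-binomial test, and all 3 were higher with SAM. In the genome 2578 of 33583 tiles did, 1463 of them higher with SAM and 1115 lower. The edgeR and limma alternatives called 0 tiles in the genome. Both had 0 member tiles at an unadjusted p under 0.05, against 3.14% of all tiles with edgeR and 4.23% with limma. As for single CpGs, the 0 calls of edgeR carry no weight. The tile with the smallest p, chr12:54368001-54369000, held 12 CpGs and gave 38.4, 32.1 and 40.7% with SAM and 33.0, 25.5 and 29.8% in controls. It averaged 7.67 points higher with SAM, with an adjusted p of 0.605 from the limma-moderated model, and the groups overlap because SAM replicate 2 lies below control replicate 1. The adjoining tile, chr12:54369001-54370000, moved the other way, with 49.9, 42.9 and 52.5% with SAM and 56.6, 58.6 and 56.6% in controls. Its groups do not overlap, and its adjusted p was 0.689 with limma's moderation. The other 3 of the 5 tiles with the smallest p began at 54360001, 54354001 and 54346001 and differed by 3.84, 2.65 and -5.56 points.

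Some members separated the groups completely, and these sites were picked by that outcome. Of the 215 members covered everywhere, every SAM value exceeded every control value at 5 (2.33%), against 2.7% of the 336571 such CpGs in the genome. Every SAM value lay below every control value at 10 (4.65%), against 2.19% of all such CpGs. With a difference of at least 10 points as well, 2 members (0.930%) were higher, against 0.816% of all CpGs, and 7 (3.26%) were lower, against 0.816%. With 3 samples against 3, the smallest exact permutation p for 1 CpG is 0.1 (two-sided), so separation alone cannot pass a threshold of 0.05. The higher count lies near the background. The count for lower CpGs lies above it, and 4 of the 7 are within 22 bases of each other and share reads, so they are not independent. Once those 4 were set aside, the lower count at any difference was 6 of 211 members, beside 2.19% of all such CpGs. The 4 were picked by their separation, and the genome share keeps its own runs of that kind. These shares are therefore not alike, and the comparison cannot decide whether the lower count exceeds the background.

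**Figure D4:**
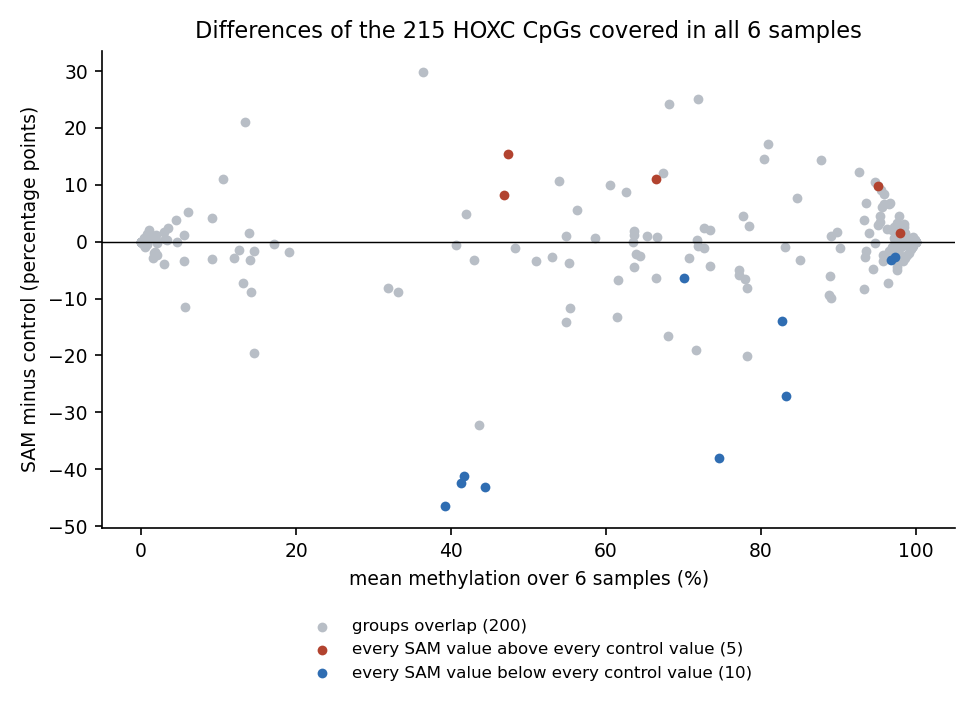
Difference in methylation, SAM minus control (percentage points), against the mean level over the 6 samples (%) for the 215 members covered everywhere; red marks the 5 whose SAM values all exceed the control values and blue the 10 whose SAM values all lie below. The 4 lowest blue points, from -46.5 to -41.2 points, are neighbours in 1 run.

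That run lay in the first stretch at the HOXC13 end, chr12:54332246-54333757, which held 53 members. From 54332898 to 54332932, 6 neighbouring members in a row were lower in every covered SAM sample than in any covered control. The 4 of them covered everywhere averaged 37.0, 6.79 and 16.2% in the SAM samples and 51.9, 44.2 and 93.8% in the controls, a difference of -43.3 points. SAM replicate 2 is lowest and control replicate 3 stands far above the other samples. Without control replicate 3, which did not cover the first 2 of the 6, the difference over all 6 members was -26.5 points.

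The 3 members with the largest range of the cluster were in this run. At 54332918, levels were 36.4, 6.67 and 17.1% with SAM (22, 15 and 82 reads) and 53.8, 38.9 and 94.4% in controls (39, 36 and 18 reads). At 54332928, levels were 40.0, 7.14 and 16% with SAM and 50, 42.4 and 94.4% in controls. At 54332932, levels were 40.0, 6.67 and 22% with SAM and 55.0, 48.5 and 94.4% in controls. The low SAM values of replicate 2 thus rest on 1 methylated read of 14 or 15, and the high control values of replicate 3 on 18 reads. None of the 6 members passed the quasi-binomial test with limma, with an adjusted p of 0.400 at the smallest.

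Around the run the separation ended within a few bases. The next member, at 54332935, gave 52.0, 7.14 and 23.5% with SAM and 56.4, 33.3 and 89.5% in controls, where SAM replicate 1 exceeds control replicate 2. At 54332948, 13 bases further, control replicate 3 was down at 20.2% with 89 reads, and SAM replicates 1 and 3 gave 19.2 and 26.5%, against 19.2 and 33.3% in control replicates 1 and 2. Control replicate 3 thus differed by nearly 70 points between CpGs 13 bases apart, with 19 and 89 reads. Depth moved with the level there. Its part in the result was not tested. At 54332971 the order was opposite, with 80.3 and 67.1% in SAM replicates 1 and 3 and 57.1, 50 and 49.5% in controls. Of the other CpGs of this stretch, a first run of 10 members was at 4.12 ± 0.868% with SAM and 4.99 ± 1.32% in controls. The 8 CpGs covered everywhere in a second run of 10 were at 61.9 ± 4.32% with SAM and 62.5 ± 7.60% in controls, within the replicate spread. The other 2 of that run were not covered in SAM replicate 2, and their groups overlap.

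**Figure D5:**
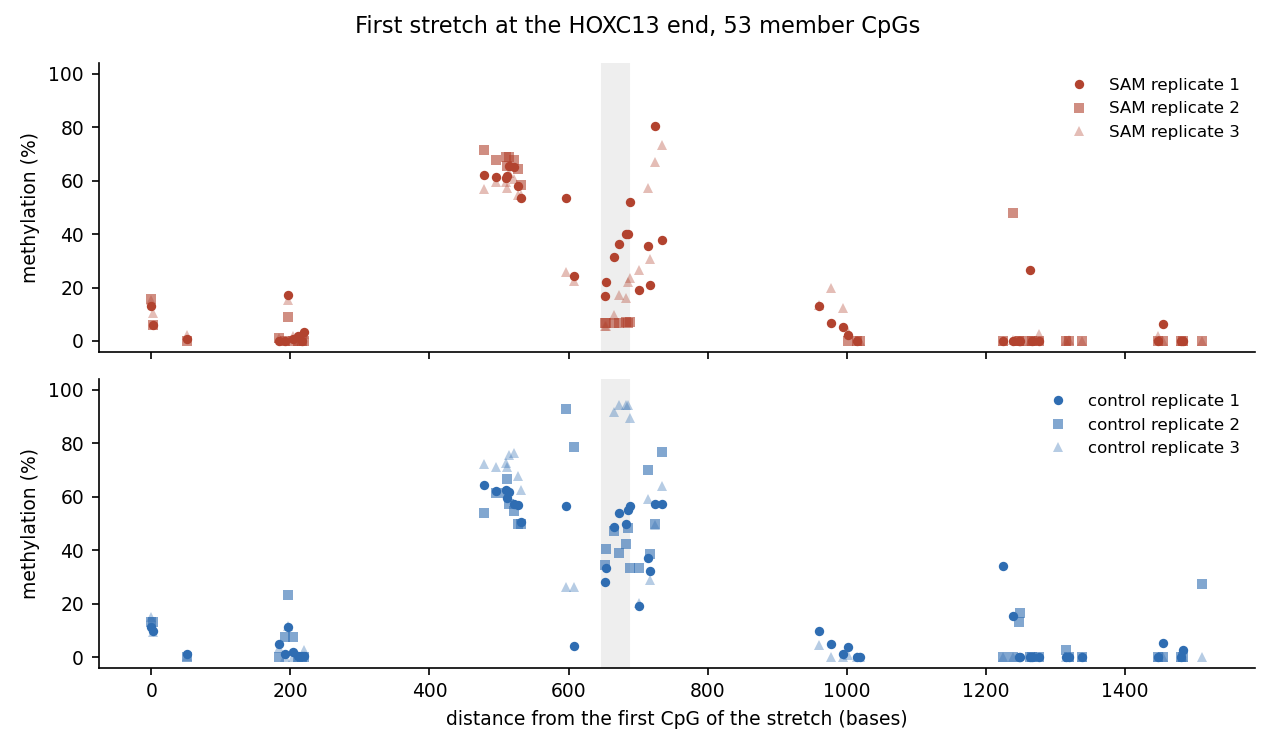
Methylation (%) of the 53 members of the first stretch against distance in bases from its first CpG, with SAM samples above, control samples below and 1 symbol per replicate; the grey band marks the run of 6 members whose groups do not overlap. In the band control replicate 3 lies over 90% and SAM replicate 2 at about 7%, and outside it no run as long separates the groups in 1 direction.

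The remaining separated members were spread over the cluster. Lower with SAM were 54346961, with 54.5, 38.1 and 74.2% with SAM and 100, 100 and 80.9% in controls, and 54346975, with 58.1, 71.4 and 79.4% with SAM and 100, 100 and 90.1% in controls. These CpGs are 14 bases apart. The stretch that holds them, chr12:54346865-54347035, averaged 55.6, 60.7 and 62.5% in the SAM samples and 70.7, 79.6 and 72.6% in the controls over 6 CpGs, a difference of -14.7 points without overlap. With the reads of the same 6 CpGs pooled, the levels were 59.3, 61.1 and 52.5% with SAM and 57.6, 60.4 and 71.4% in controls. That is a difference of -5.56 points, and the groups overlap. Pooled levels also depend on which CpGs were read most in each sample. At 54377387, levels were 71.1, 79.5 and 76.7% with SAM and 97.7, 83.8 and 87.5% in controls. The other 3 lower members, 54398852, 54428395 and 54428511, differed by -6.33, -2.62 and -3.30 points.

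Higher with SAM, besides 54355273, were 4 members. At 54359358, levels were 67.4, 71.4 and 76.9% with SAM and 62.5, 53.8 and 66.4% in controls. At 54368855, they were 52.5, 45.6 and 54.7% with SAM and 44.4, 38.9 and 45.0% in controls. The gap between the groups there was under 1 point, between SAM replicate 2 and control replicate 3. The member at 54428459 differed by 1.58 points, and the last, 54428600, by 15.5 points.

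At 54428600 the 2 strands of the same CpG disagreed. Reads of the minus strand were 96.3, 100 and 100% methylated in the SAM samples and 100, 100 and 94.6% in the controls. Reads of the plus strand were 5.00, 5.26 and 1.15% methylated in the SAM samples and 13.8, 3.13 and 6.33% in the controls. Within each strand the groups overlap. The share of reads from the minus strand was 57.1, 45.7 and 59.0% in the SAM samples and 20.2, 42.9 and 41.5% in the controls, and so it was itself higher in every SAM sample than in any control. The joined level followed this share.

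Such disagreement was rare. Of the 450 members, 46 (10.2%) were read on both strands in at least 4 samples, their strands differed by a median of 1.76 points, and 2 (4.35%) differed by over 20 points, against 4.53% of such CpGs in the whole series. The other of these 2, at 54428543, showed the opposite order, with a mean of 44.4% on the minus strand and 97.4% on the plus strand. Its minus strand gave 21.3, 60.7 and 32.1% in the SAM samples and 64.5, 61.4 and 26.4% in the controls. Both CpGs lie beyond the MIR615 border and 57 bases apart, outside the methylated runs there, and their joined levels fall in the class from 20 to 80%.

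Taken over stretches rather than single CpGs, 19 of the 27 had at least 3 members covered in all samples. With SAM, 10 of the 19 were higher and 9 lower, and 13 differed by at most 3 points. The groups did not overlap at 1 stretch that was higher (5.45% of 27225 stretches in the genome) and at 2 that were lower (4.11%). The higher one, chr12:54359358-54361074, gave 92.8, 94.3 and 95.3% with SAM and 86.2, 90.7 and 89.3% in controls over 5 CpGs. The lower ones were the stretch at 54346865 given above and chr12:54398809-54400516, with 54.7, 53.6 and 50.6% with SAM and 55.0, 58.1 and 55.1% in controls over 7 CpGs. There SAM replicate 1 and control replicate 1 are less than 1 point apart. With reads pooled over the CpGs, the groups overlap in each of these 3 stretches. Pooling weights each CpG by its reads, which differ between samples, and the CpGs stand at unlike levels. At 54359358, with a mean of 66.4%, reads were 264, 14 and 26 with SAM and 64, 13 and 792 in controls. The pooled overlap therefore does not show that the separation of the CpG averages fails.

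Several stretches differed little between samples. Of 8 members from 54402904 to 54403263, the 7 covered everywhere averaged 0.636 ± 0.633% with SAM and 0.531 ± 0.120% in controls. Another 6, from 54411377 to 54412060, averaged 0.343 ± 0.347% with SAM and 0.547 ± 0.445% in controls. At the other extreme, 8 members within 34 bases from 54408441 averaged 95.6 ± 2.83% with SAM and 95.6 ± 1.76% in controls. At an intermediate level, the 5 members from 54391385 to 54391429 gave 45.8, 44.0 and 46.8% in the SAM samples and 44.4, 50 and 48.1% in the controls.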

How the data were processed

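Each of the 6 samples has 1 deposited list of cytosines. Per the file headers, it holds strand, coverage (a read count) and the percent with C and with T. CASAVA 1.8.2, FastQC 0.10.0, Bismark 0.7.4, methylKit 0.5.3 and build hg19 appear, with no stated role, per the submitters' processing notes; library type and duplicate removal were not given in the sources used here. The deposited lists start at 10 reads, so a CpG below that on a strand is missing, not unmethylated.

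Methylated reads were taken as coverage times percent C, which was whole within 0.01 points, and the strands were joined. Any amplified copies that remain are counted as reads, and counts would then overstate precision. CpGs and 1 kb tiles (at least 3 CpGs covered in all samples) were tested with a quasi-binomial logistic model in Python 3.11.15, its dispersion moderated by limma 3.58.1 (R 4.3.3) and held at 1 or above, with Benjamini-Hochberg adjustment over the genome. Alternatives used edgeR 4.0.16, limma on log2 ratios with 1 read added, a logistic model without overdispersion, other minimums, a replicate block, a depth term and each sample left out. The scripts were tested on simulated data, where with extra spread between libraries the main test also made false calls, so its few calls across the genome may include such calls. RefSeq sequences were placed by their CG spacing, with no genome.

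The members, lists and tests were chosen with earlier results of these data known. Named CpGs and tiles are the 5 with the smallest p each, the 3 with the largest range and the longest run of each class; all others named were chosen after their values were seen.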

Additional observations from a re-analysis of the deposited data

How the results depend on the processing

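The mean difference of the HOXC members stayed within 1 SD of its value of -1.03 points under every alternative run. It lay between -1.85 and -0.342 points with each sample left out. The replicate block gave -1.03 points by construction, because every replicate holds 1 sample of each group, so that value tests nothing. Replicate numbers did not pair the samples, since same-numbered deviations correlated at -0.00509, 0.00846 and -0.00791. Called members stayed at 0 CpGs and 0 tiles under every alternative but the logistic model without overdispersion, which takes reads as the only source of error. It called 85 CpGs (21.5%, against 22.2% in the genome) and 14 tiles (51.9%, against 41.0%). Of the alternatives with 0 calls, edgeR carries no weight, as stated above. With 20 reads, 3 of 132 members were higher without overlap (2.27%, against 3.04% in the genome) and 4 lower (3.03%, against 2.42%); with a 10-point minimum 2 of 215 were higher. Without the run at 54332898, chosen after seeing the data, 6 of 211 members were lower without overlap, beside 2.19% of such CpGs in the genome. The genome share keeps its own runs of that kind, so these shares are not alike. The mean difference was then -0.226 points. That run differed by between -52.8 and -26.5 points with each sample left out, and by -35.8 points within the 3 libraries with most reads and -32.7 within the other 3, each with 1 sample in an arm and so no test. Around MIR615 the difference was 0.917 points with 20 reads, -0.292 when weighted by coverage, and between 0.0649 and 0.807 with each sample left out; its 300-base window held no CpG covered in all samples and could not be computed. With class limits of 10 and 90%, 35.3% of members were intermediate and 42.9% above. The 5 CpGs and 5 tiles with the smallest p kept their sign in all 97 refits, and none passed. In the refits with the replicate block or the depth term the difference is the main value by construction. Those refits could not change the sign. Depth is one limit: SAM replicate 2 and control replicate 2 leave 215 of 450 members covered everywhere.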
